A study of Mus musculus with 12 samples.

Results

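The miRNAs described here are miR-674*, miR-877 and miR-326, together with miR-674, the partner strand of miR-674*. Listed on the array as mmu-miR-674*, mmu-miR-877, mmu-miR-326 and mmu-miR-674, they are 4 of the 710 miRNAs and star sequences on a mouse miRNA biochip. The first 3 were picked from these arrays because, after quantile normalization, the intensities of all Tff2-KO mice lay above those of all WT mice. miR-674 was added because it comes from the same hairpin, and its level played no part in the choice. Peripheral blood was drawn from 6 tff2 KO and 6 wild type mice, both of the 129/SV strain and each with 3 males and 3 females. The age of the mice is not given in the sources used here, and no treatment is named. Tff2-KO mice lack trefoil factor 2, a peptide secreted by mucosal epithelia, and came from a line made earlier, while the WT mice were purchased, so that source and genotype cannot be told apart. Total RNA was prepared from the pelleted blood cells and 1 array was run per mouse.

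A miRNA gene is transcribed as a hairpin, from which a short duplex is cut. Usually the guide strand of the duplex is loaded into an Argonaute protein, and the other, named with an asterisk in the older nomenclature, is mostly lost. The loaded strand finds its target mRNAs mainly through its seed, bases 2 to 8 from the 5′ end. Mirtrons are hairpins that are made by splicing of a short intron, without the nuclear enzyme Drosha. miR-877 is known as a mirtron of Abcf1, a gene for an ATP-binding cassette protein that acts in translation. miR-326 is known in mice for its part in T helper cell differentiation and in human brain tumours for targeting Notch receptors. For miR-674 and miR-674* no role is stated here.

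The mature sequences are shown with the seed in capitals, since the seed decides which miRNAs could share targets. They are taken from RefSeq (GRCm38.p6) and matched through the arm names that replaced the asterisk names, because the deposited files hold no probe sequences. The last 2 lines give the partner strand of miR-877 and the array miRNA that shares a seed with miR-326.
miR-674*: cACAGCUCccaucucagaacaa
miR-674: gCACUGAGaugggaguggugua
miR-877: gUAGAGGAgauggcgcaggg
miR-326: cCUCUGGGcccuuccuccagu
miR-877*: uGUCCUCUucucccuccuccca
miR-330*: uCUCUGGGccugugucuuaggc
The 4 members have 4 different seeds, so they form no seed family. miR-326 shares its seed CUCUGGG with miR-330*, a miRNA of another locus on the same chromosome. In the RefSeq table miR-674 shares its seed CACUGAG with miR-1947-3p and miR-3473d. No other mature mouse miRNA of the RefSeq table has the seed of miR-674* or that of miR-877.

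The hairpins are shown because they place each member against its partner strand, with both mature strands in capitals.
Mir674: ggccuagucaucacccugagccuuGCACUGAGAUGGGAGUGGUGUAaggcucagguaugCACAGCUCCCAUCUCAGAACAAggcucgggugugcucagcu
Mir877: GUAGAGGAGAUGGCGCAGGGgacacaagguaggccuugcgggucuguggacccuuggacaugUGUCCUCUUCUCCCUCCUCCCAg
Mir326: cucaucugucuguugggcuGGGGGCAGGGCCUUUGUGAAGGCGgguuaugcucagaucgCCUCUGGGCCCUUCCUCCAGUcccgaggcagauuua
The Mir674 hairpin lies at chr2:117185127-117185226 on the plus strand, outside the span of every other gene of the table, with Spred1, an inhibitor of Ras signalling, as the nearest protein-coding gene. miR-674 is its 5′ strand and miR-674* its 3′ strand. The Mir877 hairpin lies at chr17:35960730-35960814 on the minus strand, within the span of Abcf1. It begins with the bases GU and ends with AG, the bases at the ends of most introns, as do 30 of 1005 mouse hairpins of the table (2.99%). miR-877 begins at the first base of this hairpin. The Mir326 hairpin lies at chr7:99552269-99552363 on the plus strand, within the span of Arrb1, which encodes a beta-arrestin. The 3 loci lie on different chromosomes. The strand miR-326-5p is not named on the array.

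Raw intensities are the authors' background-subtracted medians over the 7 spots of a miRNA. The mean raw intensity lay between 543 and 1151 on Tff2-KO arrays and between 375 and 1000.0 on WT arrays, and 20 to 43 miRNAs on a Tff2-KO array and 14 to 25 on a WT array lay below 0. The lowest value of an array lay between -88 and -32, and its size served as a measure of the noise. This measure was exceeded by 58.6% to 79.2% of the 710 miRNAs on a Tff2-KO array and by 57.5% to 83.7% on a WT array. Red cell markers were bright, with miR-486 at raw intensities from 18152 to 62387 and miR-451 from 664 to 3261. The myeloid miR-223 ranged from 448 to 3317 and the lymphoid miR-150 from 288 to 4929, whereas miR-142-3p, a miRNA of blood-forming cells, ranged from -4 to 72. Of the brain miRNAs, miR-9 stayed between -28 and 28, while miR-124 ranged from 80 to 240. The liver miRNA miR-122 ranged from 52 to 7646. Between the genotypes, limma gave 0 of 710 miRNAs with an adjusted p under 0.05 (0%, smallest adjusted p = 0.171). An unadjusted p under 0.05 was reached by 27 miRNAs that were higher (3.8%) and 40 that were lower (5.63%) in Tff2-KO mice.

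miR-674* was the bright star strand of the group. Its raw intensity had a lowest, median and highest value of 324, 580 and 772 in Tff2-KO mice and of 132, 272 and 544 in WT mice. The raw values overlapped through a single WT mouse, replicate 4, a female at 544, which lay above Tff2-KO replicates 1, 5 and 6 at 476, 344 and 324. Without normalization a Tff2-KO mouse was above a WT mouse in 33 of 36 pairs. After quantile normalization the intensity was 420.02, 468 and 655 in Tff2-KO mice and 169, 272 and 392 in WT mice. The gap between the lowest Tff2-KO and the highest WT mouse was 28.4 intensity units, or 5 ranks among the 710 miRNAs of an array. The geometric means were 491 and 266 (SD of log2 intensity 0.24 and 0.51, n = 6 mice each), a log2 difference of 0.88 with a standard error of 0.24 in limma. On all 12 arrays the raw value exceeded the noise measure, as did those of most miRNAs. As this contrast chose miR-674*, its difference is a description and carries no test.

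Beside it, the guide strand miR-674 was not separated. Its raw intensity was 556, 712 and 1225 in Tff2-KO mice and 384, 532 and 1105 in WT mice (lowest, median and highest). The normalized intensity was 537, 658 and 880.1 in Tff2-KO mice and 694, 729 and 834 in WT mice, so that the WT values lay inside the range of the Tff2-KO values. Geometric means were 682 and 738 (SD of log2 intensity 0.27 and 0.09, n = 6). The log2 difference was -0.11 with a standard error of 0.16 and a 95% interval from -0.47 to 0.24. In limma over all 710 miRNAs the adjusted p was 0.834, and the two-sided exact permutation test over the 924 groupings of the mice gave p = 0.364. The direction followed the scaling of the arrays. The difference was 0.38 on the raw values, 0.53 when the arrays were scaled to their medians and 0.35 when they were scaled to their 75th percentiles (adjusted p from 0.438 to 0.646). In bulk blood, fewer cells of a type and less RNA per cell cannot be told apart.

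**Figure D1:**
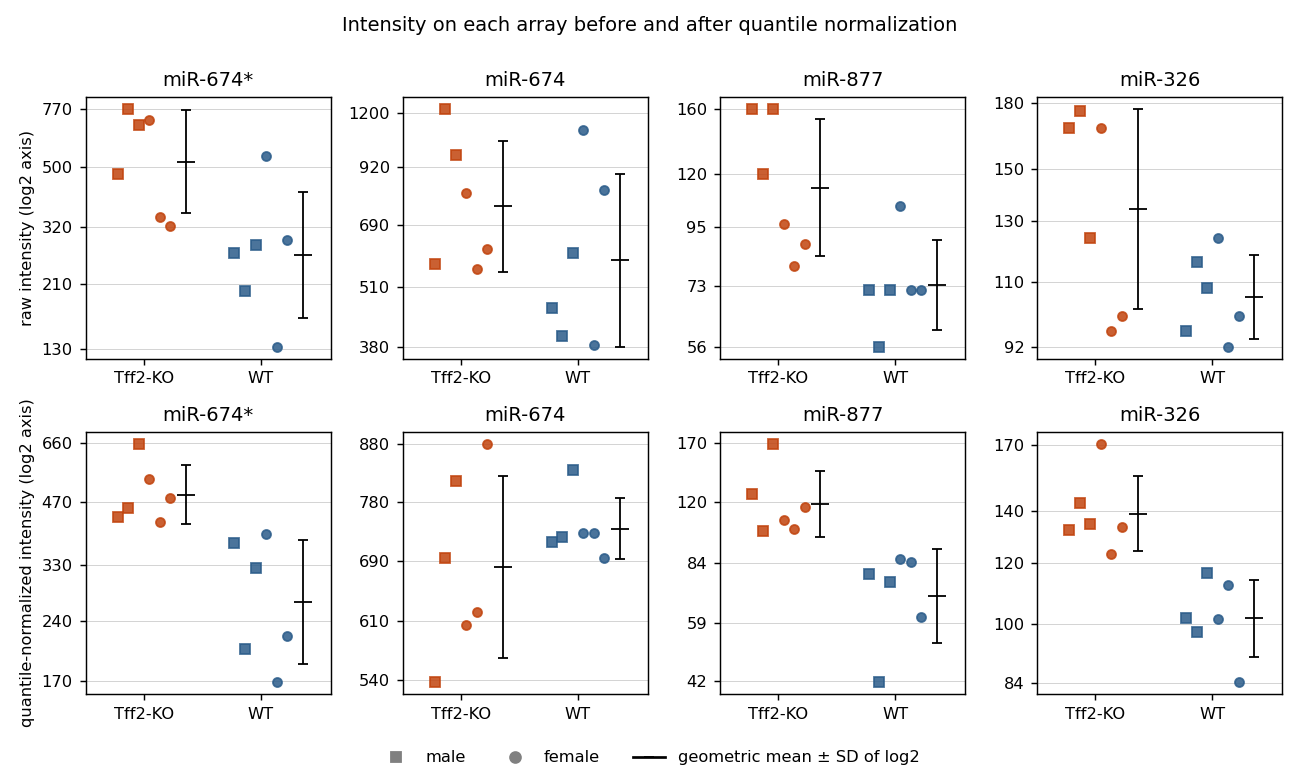
Raw (top) and quantile-normalized (bottom) intensity of the 4 miRNAs on each array, on log2 axes. Squares are males and circles females, and the bar gives the geometric mean ± SD of the log2 values of 6 mice. Raw values of the genotypes overlap in all 4 panels, while normalized values are apart for miR-674*, miR-877 and miR-326 and overlap for miR-674.

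As both strands of the Mir674 hairpin were read on the same array, their ratio does not depend on a scale factor of the array. The ratio of 2 probes says nothing of the number of molecules, but its change between mice can be followed. On the raw scale miR-674* over miR-674 was 0.526, 0.664 and 0.876 in Tff2-KO mice and 0.344, 0.478 and 0.574 in WT mice (lowest, median and highest). The only overlap was between Tff2-KO replicate 6 at 0.526 and WT replicate 1 at 0.574, so that Tff2-KO was higher in 35 of 36 pairs. The log2 ratio averaged -0.54 ± 0.28 in Tff2-KO and -1.16 ± 0.29 in WT mice (SD, n = 6), a log2 difference of 0.62. After quantile normalization, which is not a constant factor within an array, this difference was 0.995 on the log2 scale and the genotypes no longer overlapped. The numerator chose the members, and the ratio was therefore not tested.

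miR-877 was dim. Its raw intensity was 80, 108 and 160 in Tff2-KO mice and 56, 72 and 104 in WT mice (lowest, median and highest), with 4 WT mice at exactly 72. WT replicate 4, at 104, was the mouse that overlapped, above Tff2-KO replicates 4, 5 and 6 at 96, 80 and 88. Tff2-KO was higher in 33 of 36 pairs. After quantile normalization, miR-877 was at 102, 113 and 169 in Tff2-KO mice and at 41.8, 77.0 and 86.0 in WT mice. Its geometric means were 119 and 69.3 (SD of log2 intensity 0.28 and 0.40, n = 6), a log2 difference of 0.78 with a standard error of 0.22, given as a description. The highest value was Tff2-KO replicate 3 and the lowest WT replicate 2, both males. On WT replicate 1 the raw value of 72 was under the noise measure of 76, and on the other 11 arrays it was above, as were those of most miRNAs.

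The partner strand miR-877* had raw intensities of 56, 118 and 188 in the Tff2-KO mice and of 56, 102 and 240 in the WT mice, and the genotypes overlapped over nearly the whole range. Its normalized geometric means were 113 and 97.5, or a log2 difference of 0.21 (standard error 0.34, 95% interval from -0.53 to 0.96, n = 6 mice per genotype). In limma the adjusted p was 0.842, and the exact permutation test gave p = 0.537. The raw ratio of miR-877 over miR-877* was 0.545, 1.04 and 2.86 in Tff2-KO and 0.433, 0.683 and 1.29 in WT mice, with Tff2-KO higher in 25 of 36 pairs. Its log2 value had an SD of 0.84 in the Tff2-KO mice and 0.54 in the WT mice, against 0.28 and 0.29 for the strands of Mir674. After normalization, Tff2-KO replicate 3 had the highest value of miR-877 together with the lowest value of miR-877* among the Tff2-KO mice.

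**Figure D2:**
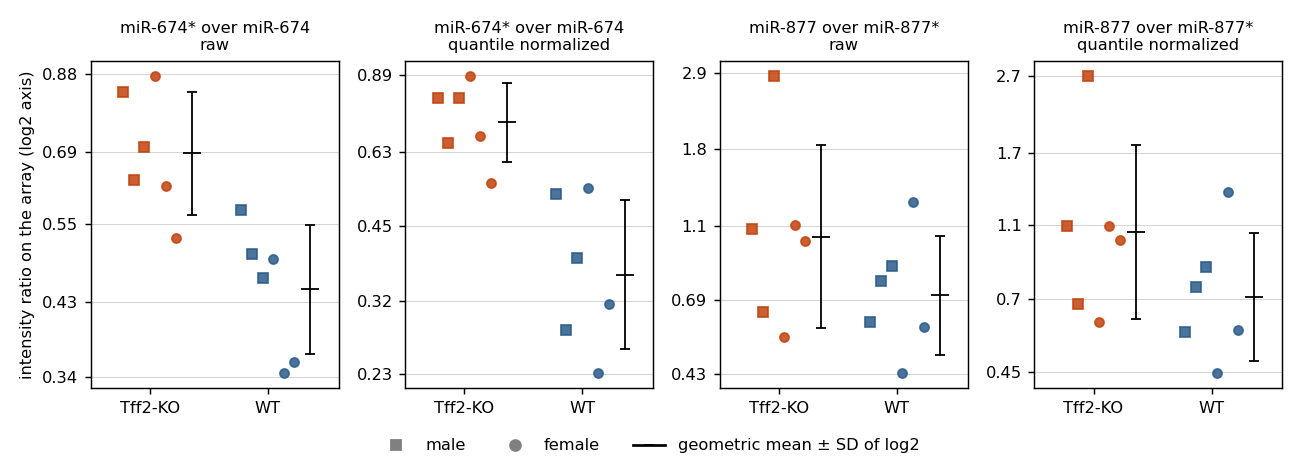
Ratio of miR-674* over miR-674 and of miR-877 over miR-877* on each array, raw and quantile normalized, on log2 axes, with squares for males, circles for females and bars for the geometric mean ± SD of log2 over 6 mice. The raw miR-674* ratio is higher in Tff2-KO in 35 of 36 pairs of mice, and the raw miR-877 ratio in 25.

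Of the 3 separated members, miR-326 had the smallest difference and the smallest spread within each genotype. Its raw intensity was 96, 146 and 176 in Tff2-KO mice and 92, 104 and 124 in WT mice (lowest, median and highest). The raw values overlapped widely, since Tff2-KO replicates 5 and 6, at 96 and 100, lay within the range of the WT mice. Tff2-KO replicate 3, at 124, equalled the highest WT mouse. Tff2-KO was higher in 26 of 36 pairs with 3 ties. After normalization the values were 123, 134 and 171 in Tff2-KO and 84.3, 102 and 116 in WT mice. The gap was 7.0 intensity units. The geometric means were 139 and 102 (SD of log2 intensity 0.16 in either genotype, n = 6), a log2 difference of 0.45 with a standard error of 0.15, given as a description. On all 12 arrays the raw value exceeded the noise measure, as did those of most miRNAs.

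The seed-sharing miR-330* went the other way. Its raw intensity was 264, 338 and 384 in Tff2-KO mice and 308, 358 and 500 in WT mice. After normalization it was at 250.3, 324 and 432 in Tff2-KO and 262, 519 and 942 in WT mice, so that 4 Tff2-KO mice lay inside the WT range and 2 below it. The log2 difference was -0.56 (standard error 0.31, 95% interval from -1.22 to 0.11), which did not pass in limma (adjusted p = 0.532) or in the two-sided exact permutation test (p = 0.0952, n = 6 mice per genotype). It shrank to -0.07 with median scaling. The difference was -1.09 in males and -0.02 in females, and females minus males came to 1.06 (95% interval from -0.04 to 2.17), which did not pass in limma (adjusted p = 0.502).

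Quantile normalization replaces each value by that of its rank, so the separation of the 3 members is one of ranks. miR-674* ranked from 79 to 99 from the brightest on Tff2-KO arrays and from 104 to 212 on WT arrays. miR-877 ranked from 212 to 348 and from 399 to 568, and miR-326 from 209 to 290 and from 309 to 406. miR-674 ranked from 69 to 86 on Tff2-KO arrays and from 71 to 77 on WT arrays. miR-877 and miR-326 thus lay near the middle of the array, where the median normalized intensity of all miRNAs was 98.3. There the gap of 15.7 intensity units of miR-877 spanned 50.5 ranks and that of 7.0 units of miR-326 spanned 18.5 ranks (ties take a mean rank). Of all raw values, 91.3% were whole multiples of 4, and many were tied. The raw value of miR-877 was shared with 6 to 18 other miRNAs on a Tff2-KO array and with 10 to 37 on a WT array, and that of miR-326 with 4 to 18 and 7 to 13. For miR-674* it was 0 or 1 in Tff2-KO and up to 8 in WT mice. Normalization without averaging of ties, chosen after the ties were seen, left all Tff2-KO above all WT mice for the 3 members.

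**Figure D3:**
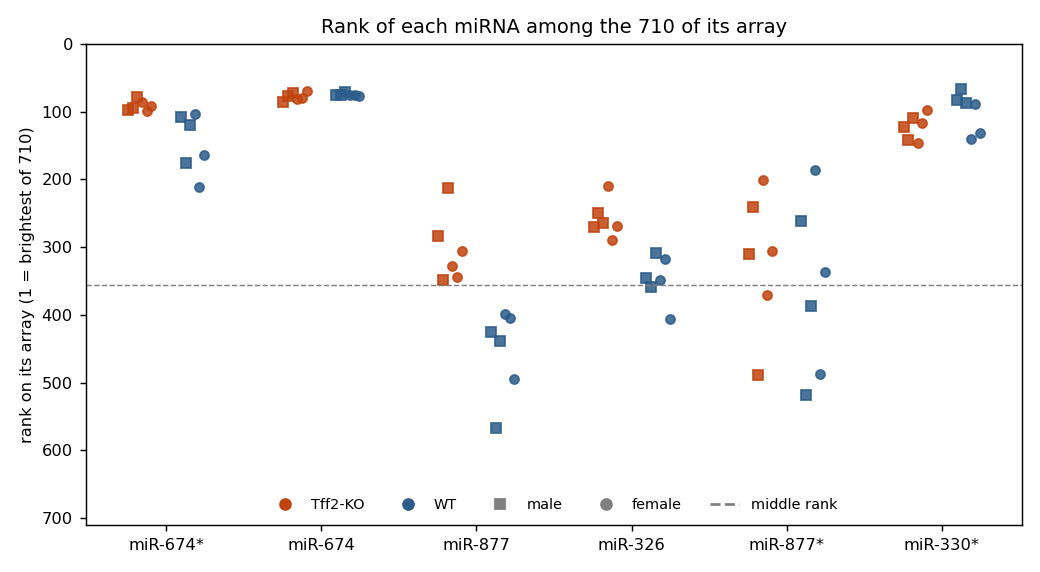
Rank of the 4 members, of miR-877* and of miR-330* on each array, with 1 as the brightest of 710 and the dashed line at the middle rank; squares are males and circles females. miR-674* and miR-674 lie among the brighter miRNAs, and miR-877 crosses the middle rank between the genotypes (212 to 348 in Tff2-KO, 399 to 568 in WT).

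Complete separation with Tff2-KO on top was found in 3 of the 710 miRNAs (0.423%), which are the 3 members, and in the other direction in 5 (0.704%). No miRNA had 35 of the 36 pairs in this order. Just outside stood miR-423-3p and miR-142-3p with 34 pairs each, named after their values were seen. miR-423-3p lay between 223 and 305 in Tff2-KO and between 108 and 232 in WT mice after normalization. miR-142-3p lay between 29.2 and 56.3 and between 1 and 33.2, where its raw values of -4 to 72 permit no fold. Separation changed with the scaling of the arrays. On the raw values or when scaled to the 75th percentile, 0 miRNAs separated in this direction. With median scaling miR-326 and miR-877 did, and with cyclic loess miR-142-3p, miR-326 and miR-877. In the authors' value table and after a normexp background correction the 3 were the members again. The direction of the difference, which the choice of members fixes, was Tff2-KO above WT for all 3 members under every scaling tried, with log2 differences from 0.71 to 1.14 for miR-674*, from 0.41 to 0.82 for miR-877 and from 0.27 to 0.51 for miR-326.

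**Figure D4:**
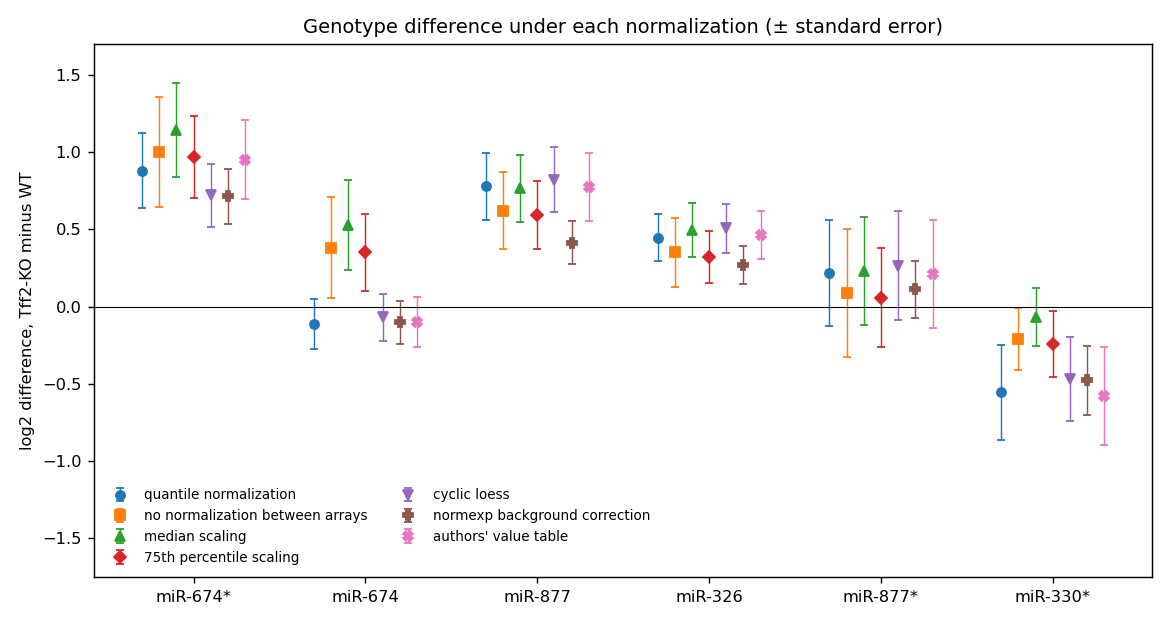
Log2 difference of Tff2-KO minus WT with its limma standard error for the members, miR-877* and miR-330* under 7 ways of normalizing the arrays. miR-674 changes its sign, from -0.11 with quantile normalization to 0.53 with median scaling, while miR-674* stays between 0.71 and 1.14.

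Sex was not used to choose the members. The rule still favoured miRNAs with a small spread within each genotype, and so with a small difference between the sexes. For miR-674*, miR-877 and miR-326 the tests of sex therefore cannot decide, and only miR-674 was free of the rule. Female minus male mice, with genotype in the model, differed by -0.17 for miR-674* (standard error 0.25, 95% interval from -0.71 to 0.38), by -0.02 for miR-674 (0.17, from -0.39 to 0.35), by 0.02 for miR-877 (0.23, from -0.48 to 0.52) and by -0.02 for miR-326 (0.16, from -0.36 to 0.32) on the log2 scale. None of the 4 passed in limma (adjusted p from 0.839 to 0.983), and the exact permutation tests of sex within genotype gave p from 0.495 to 0.93. The array as a whole had 0 miRNAs with an adjusted p under 0.05 for sex and 56 with an unadjusted one (7.89%).

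The genotype difference of miR-877 was 1.04 in males, where the geometric means were 129 in Tff2-KO and 62.8 in WT mice, and 0.51 in females, where they were 109 and 76.4 (3 mice per sex and genotype). That of miR-674* was 0.79 in males and 0.97 in females, and that of miR-326 was 0.38 and 0.51. For miR-674 it was -0.17 and -0.06. No member passed limma for a difference between the sexes (adjusted p from 0.654 to 0.932). The rule placed all Tff2-KO above all WT mice for miR-674*, miR-877 and miR-326, and so within each sex too. A genotype difference in 1 sex alone could not have been chosen, and for these members the test cannot decide. For miR-877, females minus males came to -0.53 with a 95% interval from -1.51 to 0.45. Over the array, 1 of 710 miRNAs passed (0.141%) and 71 had an unadjusted p under 0.05 (10%).

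Whether the members went up and down together was examined within each genotype, since a pooled correlation would only restate their separation. Over 16 relations between the log2 intensities of members, partner strands and miR-330*, each over 6 mice, Pearson's r ranged from -0.76 to 0.77 and none had an exact permutation p under 0.05 (smallest p = 0.0806, smallest adjusted p = 0.459). The strands miR-674* and miR-674 had r = 0.50 in Tff2-KO mice (Spearman's rho = 0.43, exact permutation p = 0.311 and 0.419, adjusted 0.743 and 0.693) and r = 0.29 in WT mice (rho = 0.06, p = 0.747 and 0.933, adjusted 0.794 and 0.996). Without the 2 mice farthest from the median of miR-674*, r was 0.88 and 0.44. For miR-674* and miR-877, r was 0.76 in Tff2-KO mice (rho = 0.49, exact permutation p = 0.0847 and 0.356, adjusted 0.459 and 0.693). It fell to 0.14 without the 2 farthest mice, and so rested on those. For miR-877 and miR-877* in Tff2-KO mice it was -0.76 (rho = -0.54, p = 0.0806 and 0.297 by exact permutation, adjusted 0.459 and 0.693) and 0.01 without 2 mice.

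Among the known mirtron products miR-877, miR-877*, miR-1224 and miR-702, all 4 had a difference above 0 and 0 passed in limma. Their median log2 difference was 0.44 beside 0.01 over all 710 miRNAs, of which 358 were higher (50.4%). miR-877 was chosen for its direction, miR-877* comes from the same hairpin, and the list was drawn up with earlier results known. The count and the median therefore carry no test. miR-1224 had geometric means of 223 and 162 in Tff2-KO and WT mice (log2 difference 0.46, standard error 0.24, adjusted p = 0.532). miR-702 was at 154 and 116 (0.41, standard error 0.30, adjusted p = 0.631). Under the other scalings, which start from the same arrays, all 4 had a difference above 0 as well, with medians from 0.28 to 0.53. The number higher among all 710 miRNAs ran from 298 to 377 under these scalings.

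Markers of blood cell types are given beside the members, since the mix of cells can differ between mice. Over all 710 miRNAs, 358 had a difference above 0 (50.4%). Of 7 lymphoid miRNAs 6 had a difference above 0 (median log2 difference 0.53). This median is the value of miR-155, whose raw intensity ran from -12 to 68. The list also holds the related miR-181a, miR-181b, miR-181c and miR-181d. The summed normalized intensity of the 7 lay between 1439 and 3824 on Tff2-KO arrays and between 858 and 3448 on WT arrays. Of 4 myeloid miRNAs 1 was higher (median -0.07, sums from 2310.3 to 4060.5 and from 2338 to 4846). It was miR-142-3p, named above as a miRNA of blood-forming cells, with raw intensities from -4 to 72. The list is thus not one of myeloid cells alone. Of 4 platelet miRNAs 3 were higher (median 0.33, sums from 1527 to 2473 and from 1509 to 3146). Of 3 red cell miRNAs 0 were higher (median -0.29, sums from 31099 to 44325 and from 32531 to 43708), but on the raw values and with median or 75th percentile scaling all 3 were higher. The myeloid list turned likewise, with all 4 higher and medians of 0.44, 0.59 and 0.41 in these settings. There, 314, 377 and 298 of all 710 miRNAs were higher. Of miRNAs of other tissues, 1 of 1 for liver, 2 of 4 for muscle, 3 of 3 for gut and 2 of 2 for brain had a difference above 0. The brain miRNAs were miR-9, with raw intensities from -28 to 28, and miR-124, from 80 to 240. None of the miRNAs in these lists passed in limma, and the summed levels of the genotypes overlapped in every list. The part of the listed miRNAs in the levels of the members was not tested.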

How the data were processed

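Blood cell RNA of 6 Tff2-KO and 6 WT mice was hybridized to Geniom biochips with biotin labeling on the chip. The authors extracted the median signal, corrected the background and took the median of 7 spots. Their deposited raw intensity table holds these values on a linear scale without normalization between arrays, and their deposited value table holds intensities after quantile normalization by the authors, of which the set of arrays is not given in the sources used here. Whether same-genotype mice shared a cage or litter is not stated either. The tests treat the mice as independent, and if they shared these, the p-values could be too small.

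Quantile normalization of the raw table used limma 3.58.1 under R 4.3.3 and all 12 arrays. Values below 1 (4.30% of all) were set to 1 and log2 was taken. Ties were averaged. All 710 miRNAs were fitted with lmFit and eBayes with Benjamini-Hochberg adjustment over all of them and a threshold of 0.05. Single values were tested by exact permutation. The members and all lists were chosen with earlier results of these data known, and members chosen on the genotype contrast were not tested on it.

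Named are the members, their partner strands, array miRNAs of equal seed, the 3 miRNAs most alike to each member, miRNAs just outside the rule, mirtrons and cell type markers. Alternatives were the authors' table, raw values, median and 75th percentile scaling, cyclic loess, normexp with an offset of 50, a pseudocount of 16, the brighter miRNAs, array weights, a robust trend, sex as covariate, the replicate block, the methods' t-test, each sex alone and each mouse left out. Same-numbered mice of the genotypes share only a number and a sex. Arrays give no counts, so the number of arrays limits the precision. Figures were drawn with matplotlib 3.10.9 (Python 3.11.15).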

Additional observations from a re-analysis of the deposited data

Results flagged for a closer look

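Of 12 groups of 6 mice (the 4 members, miR-877* and miR-330* in each genotype), 1 held a mouse far from the others, where chance gives about 1 in 20. miR-674 was at a normalized intensity of 834 in WT replicate 3, while the other WT mice lay between 694 and 732. Its raw intensity there was 604, inside the WT range of 384 to 1105.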

How the results depend on the processing

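The log2 differences of miR-674*, miR-877 and miR-326 kept their direction under all 22 alternatives run for each, ranging from 0.71 to 1.14, 0.41 to 1.04 and 0.27 to 0.51. Since the members were chosen for it, this direction is no sign of stability. With normexp, which adds an offset, miR-877 was at 0.41 and miR-326 at 0.27. The direction of miR-674 turned on the raw values (0.38) and when arrays were scaled to the median (0.53) or the 75th percentile (0.35), and its adjusted p never passed. The count of miRNAs with all Tff2-KO above all WT mice, 3 in the report, was 0 on the raw values and 0 with 75th percentile scaling, 80 in males only and 39 in females only, where fewer mice make separation easier. Leaving out 1 mouse gave 3 to 6, with 5 without Tff2-KO replicate 1, Tff2-KO replicate 5 or WT replicate 4 and 6 without WT replicate 5 or 6.

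The count of miRNAs past the adjusted threshold between genotypes, 0 in the report, was 4 with normexp, 6 among the brighter miRNAs, 2 with the robust trend, 2 in males only and 3 in females only, and 0 in each run without 1 mouse. The methods' t-test gave 70 unadjusted and 0 adjusted. With the replicate block it was 0 and miR-674 stayed at -0.11. Same-numbered mice had correlations of their deviations from -0.17 to 0.11, and none was most alike to its own number. For sex it was 0 throughout. The interaction of genotype and sex, with 1 miRNA in the report (miR-26b*, named after its value was seen, with raw intensities from -32 to 16), gave 0 with the authors' table, on the raw values, with both scalings, cyclic loess and the pseudocount, 2 with normexp, array weights and the brighter miRNAs and 3 with the robust trend. Without 1 mouse it gave 0 to 2, with 0 without Tff2-KO replicate 3 and 2 without Tff2-KO replicates 4, 5 or 6 or WT replicates 1 or 6. The cause of these shifts was not tested. Dim signals limit miR-877 and miR-326, which lie near the middle rank.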

Other observations

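The miRNAs most alike to each member across the 12 mice were sought after the genotype means had been subtracted, so that the separation of the genotypes played no part. For miR-674* these were miR-532-3p, miR-7a* and miR-421, with Pearson's r from 0.82 to 0.86, and their own log2 differences between Tff2-KO and WT mice were 0.29, 0.74 and 0.48. For miR-674 they were miR-712, miR-671-3p and miR-1939 (r from 0.75 to 0.82), with differences of -0.06, 0.77 and -0.36. The strand miR-674* was not among them.

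For miR-877 they were miR-668, miR-669c and miR-669n (r from 0.74 to 0.85), with differences of 0.48, 0.66 and 0.35. For miR-326 they were miR-218, let-7d and miR-125b-3p (r from 0.70 to 0.77), with differences of 0.04, 0.28 and 0.04. No miRNA appeared for more than 1 member. The values are the highest of 709 correlations for each member and share the arrays and their normalization, so they are given without a p.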
